A study of Saccharomyces cerevisiae with 6 samples.

Results

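The 82 genes examined here are the rows of the count table whose names begin with RPL or RPP followed by a number and, in most, the letter A or B. They were 82 of the 7126 rows of the table. Of these, 81 encode proteins of the large subunit of the cytosolic ribosome, 76 of them named RPL and 5 belonging to the stalk. The remaining row, *RPP1*, encodes a protein of RNase P, the enzyme that processes tRNA precursors, and shares only the name. As 70 of the genes form 35 A/B pairs, the large subunit proteins with a single gene are encoded by *RPL3*, *RPL5*, *RPL10*, *RPL25*, *RPL28*, *RPL29*, *RPL30*, *RPL32*, *RPL38*, *RPL39* and *RPP0*. Chromosome XIV holds 4 members (*RPL9B*, *RPL16B*, *RPL18B* and *RPL42A*), chromosome VI holds 3 (*RPL2A*, *RPL22B* and *RPL29*), and 75 lie elsewhere. Transcript levels were compared between a *kcs1*-S537A,S646A strain, called the mutant below, and a strain with wild-type *KCS1*. Both are diploids of the filamentous Σ1278b background with both chromosomal copies of *KCS1* deleted, and both carry *KCS1*, in its mutant or wild-type form, on the low-copy plasmid pRS416. For each strain, 3 single colonies were grown in medium without uracil and then in low-nitrogen medium, for 20 h by the labels, and poly(A) RNA was sequenced. The 3 colonies of a group derive from a single strain, so that differences cannot be assigned to the allele rather than to other differences between the strains, and *p*-values measure the spread between these colonies.

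The large subunit of the ribosome holds the peptidyl transferase centre, in which rRNA joins amino acids, and the tunnel through which the growing protein leaves. Its proteins are needed in nearly equal amounts, and their genes are among the most actively transcribed of growing yeast, driven for the most part by Rap1, Fhl1, Ifh1 and Sfp1 and lowered when nutrients run short. Budding yeast kept many of these genes as pairs after an ancient duplication of its genome, so that one protein is often supplied by copies on different chromosomes. Kcs1 is an inositol hexakisphosphate kinase that makes inositol pyrophosphates.

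Total counts were between 20529351 and 22701020 in the mutant samples and between 17950923 and 20822332 in the wild-type samples. *KCS1* itself had 272, 797 and 347 CPM (depth-scaled counts, using the TMM factors of edgeR) in mutant replicates 1 to 3 and 367, 309 and 341 CPM in wild-type replicates 1 to 3. Substitutions of single residues leave no trace in counts per gene, so these values do not check the labels. Among 14 genes specific to haploid cells or to a mating type, none was called, none was at 0, and their summed FPKM lay between 226 and 263 in the mutant and between 206 and 215 in wild type. The sum is weighted to *MFA1*, which alone had between 51.5 and 107 FPKM over the samples of both strains. Genes of chromosome XIV stood apart in all mutant samples, with medians of -0.52, -0.55 and -0.53 (log2, relative to the wild-type mean) over 407 genes in mutant replicates 1, 2 and 3. Genes of chromosome VI stood apart in mutant replicate 1 alone, with medians of -0.96, 0.04 and 0.03 over 131 genes. As this bulk RNA gives relative levels, less RNA per cell and fewer cells of a kind cannot be told apart.

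The members on chromosome XIV, where genes as a whole stood apart in all mutant samples, are described first by sequence. For *RPL16*, *RPL42* and *RPL9*, the first 120 coding bases, with introns removed, are shown for the copy on chromosome XIV and then for its partner, as they show how the copies can be told apart. Sequences are those of the S288C reference (R64, RefSeq), not of Σ1278b. Capitals mark bases that differ between the copies or have no counterpart in the other.
RPL16B: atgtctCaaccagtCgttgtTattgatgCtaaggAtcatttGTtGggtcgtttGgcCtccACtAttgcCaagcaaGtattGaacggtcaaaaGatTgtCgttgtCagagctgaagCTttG
RPL16A: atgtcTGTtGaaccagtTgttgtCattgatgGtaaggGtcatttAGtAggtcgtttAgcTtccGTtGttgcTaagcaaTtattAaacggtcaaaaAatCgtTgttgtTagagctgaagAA
RPL42A: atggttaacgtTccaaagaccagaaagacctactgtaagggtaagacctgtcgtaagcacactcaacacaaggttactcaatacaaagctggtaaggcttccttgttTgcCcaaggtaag
RPL42B: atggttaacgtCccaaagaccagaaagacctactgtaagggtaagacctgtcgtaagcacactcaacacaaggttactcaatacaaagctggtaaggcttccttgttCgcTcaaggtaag
RPL9B: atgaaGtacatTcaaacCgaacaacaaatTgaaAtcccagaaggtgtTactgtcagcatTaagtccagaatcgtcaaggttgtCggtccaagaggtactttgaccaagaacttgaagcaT
RPL9A: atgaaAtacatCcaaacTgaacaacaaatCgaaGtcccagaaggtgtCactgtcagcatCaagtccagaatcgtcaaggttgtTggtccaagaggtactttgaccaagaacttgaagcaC
In these stretches 3 bases differed between the *RPL42* copies and 9 between the *RPL9* copies, while *RPL16B* and *RPL16A* had 23 and 25 capital bases. In R64, the genes on chromosome XIV are *RPL18B* at chrXIV:63570-64562 and *RPL16B* at chrXIV:493956-495001 on the minus strand, and *RPL42A* at chrXIV:331322-332154 and *RPL9B* at chrXIV:499681-500256 on the plus strand. The partners shown are *RPL16A* at chrIX:98527-99416, *RPL42B* at chrVIII:381990-382751 and *RPL9A* at chrVII:227754-228329, all on the minus strand. Over the whole coding sequence, identity was 86.5% for *RPL16*, 98.1% for *RPL42* and 93.8% for *RPL9*. No window of 150 coding bases, the length of one read, occurred elsewhere in the reference for *RPL18B* or for the genes shown.

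Not all pairs were so distinct. Coding identity between the copies of the 35 pairs was between 69.2% (*RPP1A* and *RPP1B*) and 99.4% (*RPL1A* and *RPL1B*), with a median of 93.2%. For 12 genes at least one window of 150 coding bases was not unique in the reference, with 71.5% of windows in *RPL35A* and *RPL35B*, 47.1% in *RPL11A* and *RPL11B*, 45.0% in *RPL4A* and *RPL4B*, 37.6% in *RPL1A* and *RPL1B*, 17.9% in *RPL7A* and *RPL7B* and 6.33% in *RPL2A* and *RPL2B*. The first window shared by *RPL35A* and *RPL35B* is given to show such a stretch, from which a single read has no copy of its own.
RPL35A and RPL35B: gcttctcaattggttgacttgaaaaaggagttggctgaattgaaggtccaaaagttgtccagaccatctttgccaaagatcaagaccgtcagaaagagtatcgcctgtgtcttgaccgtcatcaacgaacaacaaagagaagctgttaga
It lies within *RPL35A* at chrIV:117664-118517. The coding sequences of *RPL41A* (chrIV:130407-130484) and *RPL41B* (chrIV:221724-221801), which encode the smallest protein of the ribosome, are 78 bases long and differ at the 1 base in capitals.
RPL41A: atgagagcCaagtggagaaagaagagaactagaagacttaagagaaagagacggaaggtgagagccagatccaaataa
RPL41B: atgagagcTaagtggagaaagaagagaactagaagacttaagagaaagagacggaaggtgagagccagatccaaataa
Levels of the copies in these near-identical pairs are therefore uncertain, as reads may have been split between them or left out.

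A second limit comes from other rows of the table. The coding bases of 14 members lay in part inside another row, mostly a dubious open reading frame, and in 6 of them, *RPL22A*, *RPL28*, *RPL33A*, *RPL36B*, *RPL39* and *RPL43A*, this held for 88.0% to 99.3% of coding bases. The sources used here do not say whether the counting used strand or how it treated reads that fall in more than one row. These 6 genes had mean FPKM (fragments per kilobase, scaled for depth, from the deposited table) between 31.0 and 227 in the mutant and between 23.7 and 196 in wild type. The other 75 ribosomal members had medians of 1675 FPKM in the mutant and 1418 FPKM in wild type. The 6 were among the 8 lowest of the 81 ribosomal genes in wild type, and their levels are not read here as levels of expression.

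One member was called lower in the mutant and none was called higher, by edgeR's quasi-likelihood test with Benjamini-Hochberg adjustment over all 6083 genes tested and a threshold of 0.05. All 82 members passed the filter on low counts. The called gene was *RPL18B* on chromosome XIV. Of all genes tested, 4.67% were called lower and 0.986% higher. At an unadjusted *p* under 0.05, 12 members were higher and 1 was lower, against 8.24% of all genes higher and 11.9% lower. DESeq2 called 1 member higher, *RPL22A*, and neither limma-voom nor limma-trend on log2(FPKM + 1) called any higher.

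The values nevertheless leaned one way. The log2 fold change, mutant over wild type, was above 0 in 77 members and below 0 in 5, and its median was 0.24, beside 0.01 over all genes tested. In 28 members all mutant samples lay above all wild-type samples, in 1 they lay below, and in 53 the strains overlapped. Over all genes tested, 11.8% lay above and 14.8% below.

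This lean was unequal among the mutant colonies. The median of the members, relative to the wild-type mean on the log2 scale, was 0.52, 0.09 and 0.09 in mutant replicates 1, 2 and 3, against 0.04, -0.0020 and -0.03 in wild-type replicates 1, 2 and 3. Mutant replicate 1 held the highest of the 6 values in 73 of the 82 members. The members took 7.91%, 6.55% and 6.25% of all counts in the mutant samples, against 6.34%, 6.32% and 6.10% in the wild-type samples. Mutant replicate 3 lay within the wild-type range by this measure, and mutant replicate 2 lay slightly above it. The median over the members was 0.08 in the fit that left out mutant replicate 1. In that comparison 30 members lay above all wild-type samples, against 17.9% of all genes tested.

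**Figure D1:**
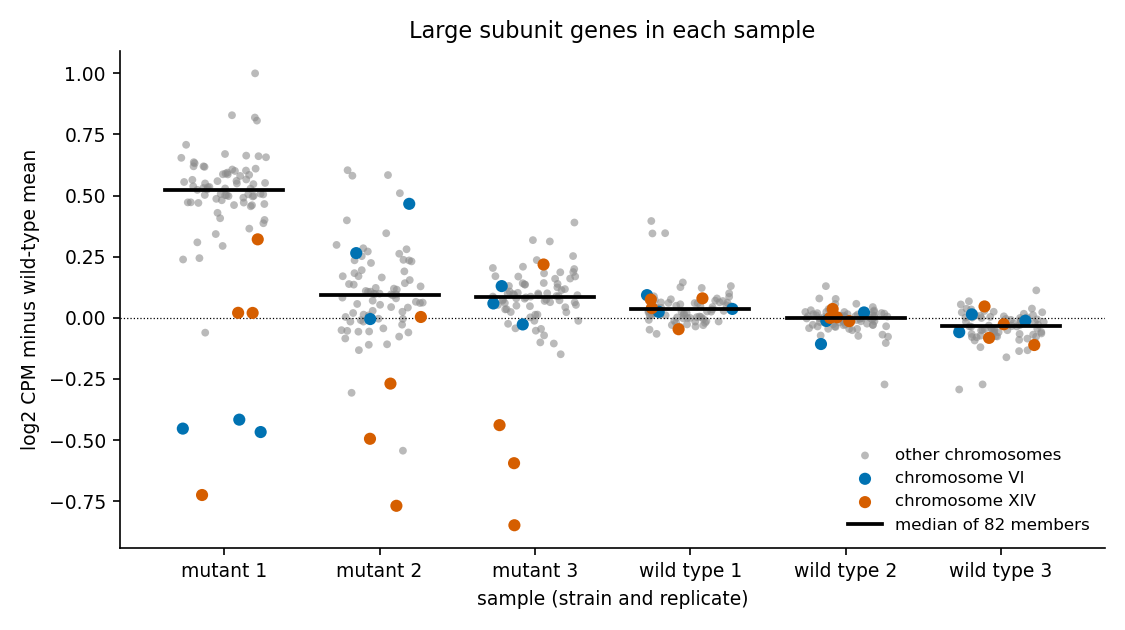
Each point is one of the 82 genes in one sample, as log2 CPM minus the mean of the 3 wild-type samples, with chromosome XIV genes in orange, chromosome VI genes in blue and medians as bars. The median is 0.52 in mutant replicate 1 and between -0.03 and 0.09 in the other 5 samples, and the blue points fall below 0 together in mutant replicate 1.

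The same difference between colonies was present in the small subunit. Its 56 genes had medians of 0.48, 0.04 and 0.04 in mutant replicates 1, 2 and 3, and none was called (smallest adjusted *p* = 0.13, edgeR). At an unadjusted *p* under 0.05 (edgeR), 5 were higher and 0 lower, against 8.24% of all genes tested higher and 11.9% lower. The 33 genes tested of the mitochondrial large subunit, which are encoded in the nucleus but controlled apart from cytosolic ribosomal genes, had medians of 0.08, -0.01 and -0.22 in these samples.

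Short genes were higher as a class in mutant replicate 2 and, less so, in mutant replicate 1, and the shortest members were higher in both. Off chromosomes XIV and VI, the 8 members under 300 bases had medians of 0.60, 0.43 and 0.09 in mutant replicates 1, 2 and 3, and the 320 genes of this length among all genes tested had 0.14, 0.24 and -0.02. The 48 members of 300 to under 600 bases had 0.55, 0.10 and 0.08, against 0.09, 0.13 and -0.03 in 941 genes of that length. The 19 members of 600 to under 1200 bases had 0.49, -0.0041 and 0.11, against 0.02, 0.01 and -0.01 in 1604 genes. In mutant replicates 1 and 3 the members stood above genes of like length in each class. In mutant replicate 2 they did so only under 300 bases. The part of transcript length in the values of single members was not tested. Median log2 fold changes were 0.26 in 48 members with introns and 0.25 in 27 without, off chromosomes XIV and VI.

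*RPL18B*, whose protein lies on the surface of the large subunit, had 205, 199 and 188 CPM in mutant replicates 1, 2 and 3, against 357, 347 and 313 CPM in wild-type replicates 1, 2 and 3. The mutant samples were close together and all below wild type. This is a log2 change of -0.78 ± 0.09 (standard error), with an adjusted *p* of 0.0041 from edgeR, and *RPL18B* was called in each alternative that kept chromosome XIV, with an adjusted *p* of at most 0.039.

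*RPL16B*, which lies at 493956 to 495001 of chromosome XIV, had 1482, 1037 and 1078 CPM in the mutant, against 1415, 1461 and 1509 CPM in wild type. Mutant replicate 1 fell inside the wild-type range and the other mutant samples below it. The log2 change was -0.29 ± 0.15 (standard error), with an adjusted *p* of 0.35 (edgeR), and without mutant replicate 1 it was -0.47 with an adjusted *p* of 0.018. *RPL16A* on chromosome IX had 866, 583 and 661 CPM in the mutant, against 629, 643 and 616 CPM in wild type, with the mutant samples on both sides of wild type. Rpl16 is a universally conserved protein of the subunit, and *RPL16B* is the more abundant copy by FPKM in all 6 samples.

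*RPL42A* had 695, 569 and 454 CPM in the mutant, against 724, 686 and 647 CPM in wild type. Mutant replicate 1 again overlapped wild type, and the others lay below. Its partner *RPL42B* on chromosome VIII had 784, 638 and 541 CPM in the mutant, against 559, 535 and 504 CPM in wild type. The copies encode a protein near the exit site for tRNA, in which certain substitutions make yeast resistant to cycloheximide. Neither was called, with log2 fold changes of -0.26 for *RPL42A* and 0.30 for *RPL42B*. Their sum was 1227 ± 243 CPM in the mutant and 1219 ± 65.8 CPM in wild type (SD, n = 3 each).

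*RPL9B* alone of the 4 members on chromosome XIV had a log2 fold change above 0, as did 20 of all 407 genes tested there. It had 966, 775 and 899.8 CPM in the mutant, against 795, 766 and 759.5 CPM in wild type, a log2 change of 0.19 ± 0.11 (standard error) with an adjusted *p* of 0.40 (edgeR). *RPL9A* on chromosome VII had 611, 323 and 313 CPM in the mutant, against 302, 323 and 292 CPM in wild type. Mutant replicate 1 stood far above the other 5 samples, and without it the log2 fold change of *RPL9A* was 0.05. Rpl9 sits near the base of the stalk.

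**Figure D2:**
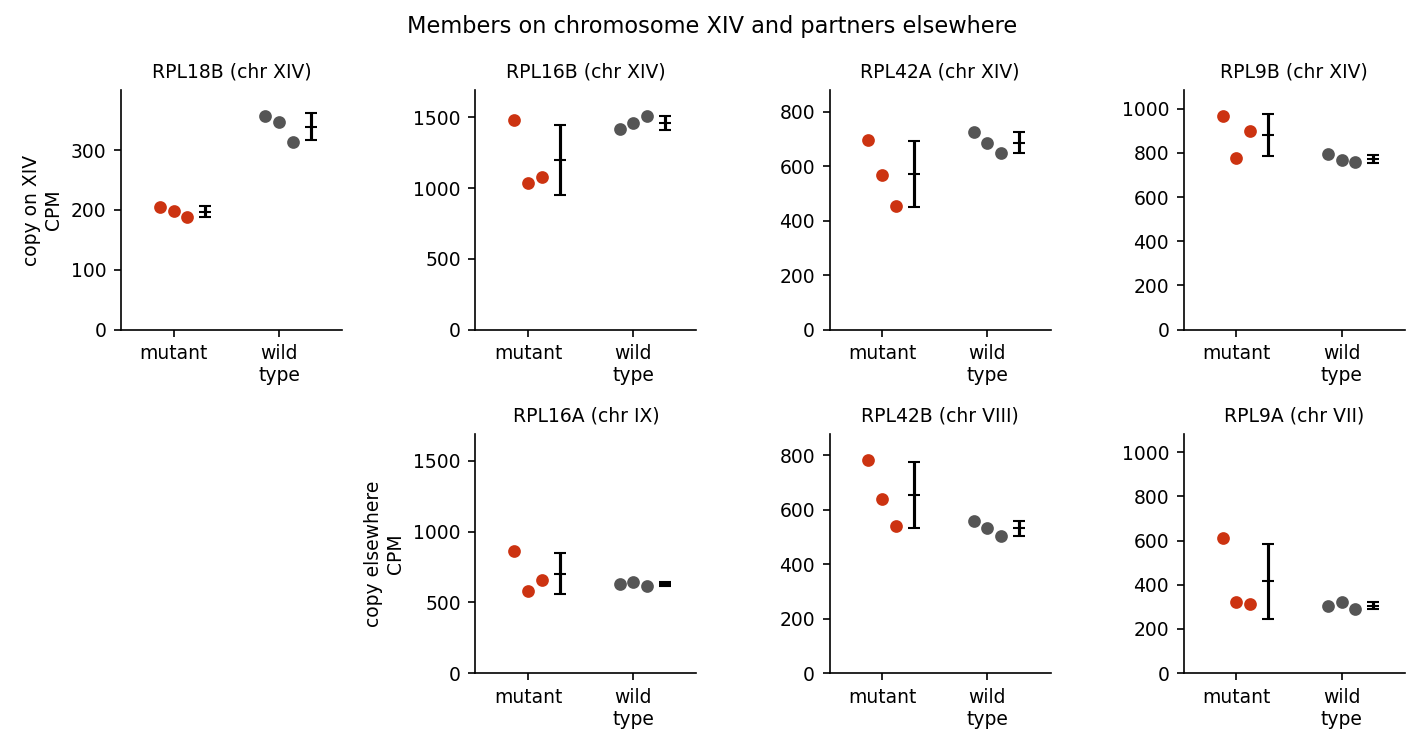
Points give CPM in each of the 3 mutant samples (left, red) and the 3 wild-type samples (right, grey), with mean and SD beside them, for the members on chromosome XIV (top) and partners elsewhere (bottom). RPL18B alone has all mutant samples below all wild-type samples, and the partners shown have their highest value in mutant replicate 1.

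Set against the 75 members elsewhere, *RPL16B* and *RPL42A* were more even between the mutant colonies than against the wild-type mean, and *RPL18B* and *RPL9B* were not. Relative to the median of those members in the same sample, *RPL16B* was at -0.51, -0.59 and -0.53 in mutant replicates 1, 2 and 3 (log2), and *RPL42A* was at -0.51, -0.36 and -0.68. *RPL18B* was lower, at -1.26, -0.86 and -0.94. *RPL9B* was at -0.21, -0.09 and 0.13. All genes tested on chromosome XIV had a median log2 fold change of -0.52, and 336 of 407 lay below wild type in all mutant samples. The 4 members on this chromosome had a median of -0.27, against 0.25 for the 78 members off it. All genes tested off chromosome XIV had a median of 0.03.

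**Figure D3:**
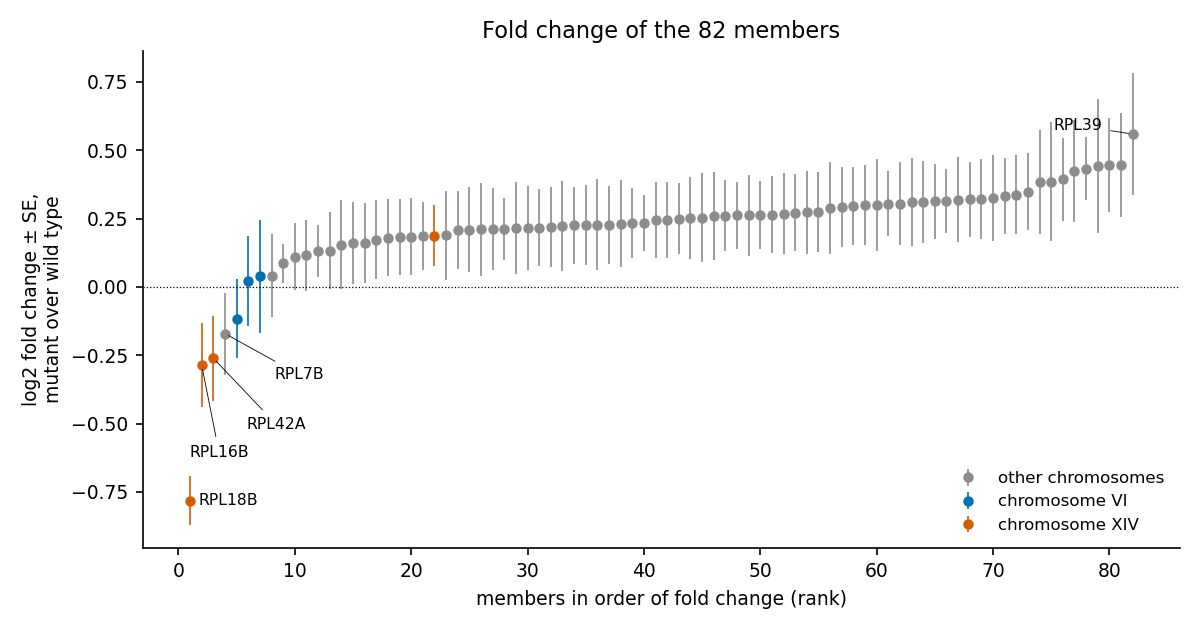
Log2 fold change of each member, mutant over wild type, with its standard error, in order of size. The 3 lowest members, RPL18B, RPL16B and RPL42A, lie on chromosome XIV, and most of the others lie between 0.1 and 0.5.

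The 3 members on chromosome VI were low in mutant replicate 1, where 74 of the 75 members off chromosomes XIV and VI lay above the wild-type mean. *RPL2A*, which encodes a protein beside the peptidyl transferase centre, had 755, 1029.7 and 1076 CPM in the mutant, against 1051, 1024 and 1025 CPM in wild type. *RPL22B* had 208, 334 and 304 CPM in the mutant, against 285, 283 and 267 CPM in wild type. *RPL29*, a gene yeast can live without, had 104, 198 and 141 CPM in the mutant, against 153, 133 and 145 CPM in wild type. Relative to the median of the 75 members elsewhere, mutant replicate 1 was at -0.98 for *RPL2A*, -0.95 for *RPL22B* and -0.998 for *RPL29*, beside -0.96 for all genes of the chromosome relative to the wild-type mean. In mutant replicates 2 and 3 these differences were between -0.11 and 0.37. None of the 3 was called, with log2 fold changes of -0.12, 0.02 and 0.04 for *RPL2A*, *RPL22B* and *RPL29*.

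Their partners did not share the low value. *RPL2B* on chromosome IX had 2259, 1612 and 1746 CPM in the mutant, against 1621, 1600.5 and 1582 CPM in wild type. *RPL22A* on chromosome XII had 59.3, 45.4 and 50.0 CPM in the mutant, against 37.3, 41.7 and 35.6 CPM in wild type, and here the strains did not overlap. *RPL22A* was the member nearest to a call among those with higher levels, by 0.43 ± 0.12 on the log2 scale (standard error), with an adjusted *p* of 0.079 (edgeR). It was called by DESeq2 (adjusted *p* = 0.027) and by edgeR without mutant replicate 2 (adjusted *p* = 0.039), while 96.7% of its coding bases lie inside the row YLR062C, so that, without strand, the reads of both rows cannot be told apart. Rpl22 is known to bind the intron of *RPL22B* transcripts and to hold back their splicing, which links the level of this pair to its own protein.

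Of the other single genes, *RPL3*, which encodes a long protein that reaches the peptidyl transferase centre, had 5884, 4144 and 4894 CPM in the mutant, against 4071, 4175 and 4221 CPM in wild type. *RPL5* encodes the protein that carries 5S rRNA into the subunit together with Rpl11, and had 3207, 2182 and 2573 CPM in the mutant, against 2253, 2182 and 2348 CPM in wild type. *RPL25*, whose protein sits at the mouth of the exit tunnel where targeting factors dock, had 1405, 1092 and 1120 CPM in the mutant, against 1081, 1054 and 1044 CPM in wild type, with no overlap. Of these, only *RPL25* had mutant replicates 2 and 3 both above wild type. *RPL30*, which represses the splicing of its own transcript, had 1606, 1309 and 1074 CPM in the mutant, against 1131, 1054 and 1011 CPM in wild type. *RPL10*, whose protein joins the subunit last and near the P site, changed by 0.04 ± 0.15 on the log2 scale (standard error), at an adjusted *p* of 0.91 (edgeR). It had 1761, 1207 and 1641 CPM in the mutant, on both sides of 1455, 1508 and 1516 CPM in wild type. However, 61.3% of the coding bases of *RPL10* lie inside another row, so its counts carry the limit given above. The 11 single genes had log2 fold changes between 0.04 and 0.56 with a median of 0.23, and 4 of them lay above wild type in all mutant samples, against 11.8% of all genes tested. These single genes, apart from *RPL10* and *RPL29*, were chosen to show the roles after their values were seen.

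The stalk, which recruits translation factors to the ribosome, is built on Rpp0 with pairs of the acidic proteins Rpp1 and Rpp2. *RPP2A* had 865, 592 and 548 CPM in the mutant, against 508, 475 and 488 CPM in wild type. *RPP2B* had 1268, 979.8 and 887 CPM in the mutant, against 878, 794 and 835 CPM in wild type. Both therefore had all mutant samples above wild type, with log2 fold changes of 0.45 (standard error 0.17) and 0.32 (standard error 0.15), each with an adjusted *p* of at least 0.20 (edgeR). *RPP1A* had 1168, 944 and 771 CPM in the mutant, against 796, 791 and 746 CPM in wild type. *RPP1B* had 841, 621 and 534 CPM in the mutant, against 623, 545 and 551 CPM in wild type. *RPP0* had 1452, 1149.9 and 1118 CPM in the mutant, against 1246, 1121 and 1026 CPM in wild type, and 47.8% of its coding bases lie inside another row. In these last 3 genes mutant replicates 2 and 3 did not both lie above wild type, and their log2 fold changes were 0.31, 0.21 and 0.13 for *RPP1A*, *RPP1B* and *RPP0*.

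*RPL40A* and *RPL40B* encode the same ribosomal protein fused to ubiquitin, which is cut off after translation. *RPL40A* had 1203, 878 and 882 CPM in the mutant, against 848, 822 and 796 CPM in wild type, and *RPL40B* had 695, 434 and 493 CPM in the mutant, against 453, 433 and 430.0 CPM in wild type. The log2 fold changes were 0.27 and 0.30, with an adjusted *p* of 0.35 and 0.37 (edgeR).

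The largest log2 fold changes off chromosomes XIV and VI were those of *RPL39* (0.56), *RPL33A* (0.45), *RPP2A* (0.45) and *RPL9A* (0.44), with an adjusted *p* of at least 0.20 (edgeR). *RPL39*, whose protein lines the exit tunnel, had only 9.19, 7.73 and 6.13 CPM in the mutant, against 6.55, 4.87 and 4.23 CPM in wild type, and 96.2% of its coding bases lie inside another row. *RPL33A* had 12.3, 10.3 and 9.66 CPM in the mutant, against 9.88, 6.41 and 7.37 CPM in wild type. In both genes the strains overlapped. The smallest were those of *RPL7B* (-0.17), *RPL10* (0.04), *RPP1* (0.09) and *RPL36B* (0.11). *RPL7B* had 234, 167 and 250.2 CPM in the mutant, against 238, 231 and 264 CPM in wild type, and was the lowest of the 75 members elsewhere in mutant replicates 1 and 2 relative to the wild-type mean. *RPP1*, the RNase P gene, had 101, 110.0 and 107 CPM in the mutant, against 104, 96.9 and 98.8 CPM in wild type, and did not share the high values of mutant replicate 1.

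Per length and over both strains, *RPL41B*, *RPL15A* and *RPL41A* had the highest levels and *RPL43A*, *RPL33A* and *RPL39* the lowest. *RPL41B* had 5260 ± 954 FPKM in the mutant and 4176 ± 289 FPKM in wild type. *RPL15A* had 4809 ± 1085 FPKM in the mutant and 4155 ± 55.8 FPKM in wild type. *RPL41A* had 4844 ± 1296 FPKM in the mutant and 3609.9 ± 105 FPKM in wild type (SD, n = 3 each throughout). The order of these 3 is not fixed beyond their spread in the mutant, and in wild type *RPL32* lay above *RPL41A*, at 3806 ± 53.4 FPKM. For transcripts as short as *RPL41A* and *RPL41B*, FPKM depends strongly on how the length was set. At the other end, *RPL43A* had 31.0 ± 5.03 FPKM in the mutant and 23.7 ± 6.11 FPKM in wild type, *RPL33A* had 33.2 ± 4.35 FPKM in the mutant and 24.3 ± 5.47 FPKM in wild type, and *RPL39* had 49.3 ± 9.86 FPKM in the mutant and 33.4 ± 7.57 FPKM in wild type. All 3 lie almost wholly inside another row.

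Within pairs, the A copy had the higher FPKM in all 6 samples in 14 pairs, the B copy in 18, and the order was mixed in 3. The copies were within 2-fold of each other in 23 of the 35 pairs and over 4-fold apart in 9. In 5 of these 9, neither copy has 85% or more of its coding bases inside another row. The largest ratios were those of *RPL43* (B over A 61.5-fold), *RPL15* (A over B 49.8-fold), *RPL33* (B over A 35.6-fold), *RPL1* (B over A 10.2-fold) and *RPL36* (A over B 9.19-fold). In *RPL43*, *RPL33* and *RPL36* the low copy is one of the 6 genes inside another row. *RPL15B* has no such row and no window shared with *RPL15A*, and had 96.8 ± 11.4 FPKM in the mutant and 82.2 ± 4.46 FPKM in wild type (SD, n = 3 each), far under *RPL15A*. *RPL1A* had 267 ± 25.3 FPKM in the mutant and 243 ± 12.6 FPKM in wild type. *RPL1B* had 2829.7 ± 496 FPKM in the mutant and 2415 ± 38.6 FPKM in wild type, and 37.6% of windows of this pair are shared. Averaged over the 6 samples of both strains, the copies of *RPL6*, *RPL19* and *RPL42* were nearest to each other, within 1.06-fold. In *RPL42* this average joins opposite orders, with A-to-B count ratios of -0.20 in the mutant and 0.37 in wild type (mean log2).

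**Figure D4:**
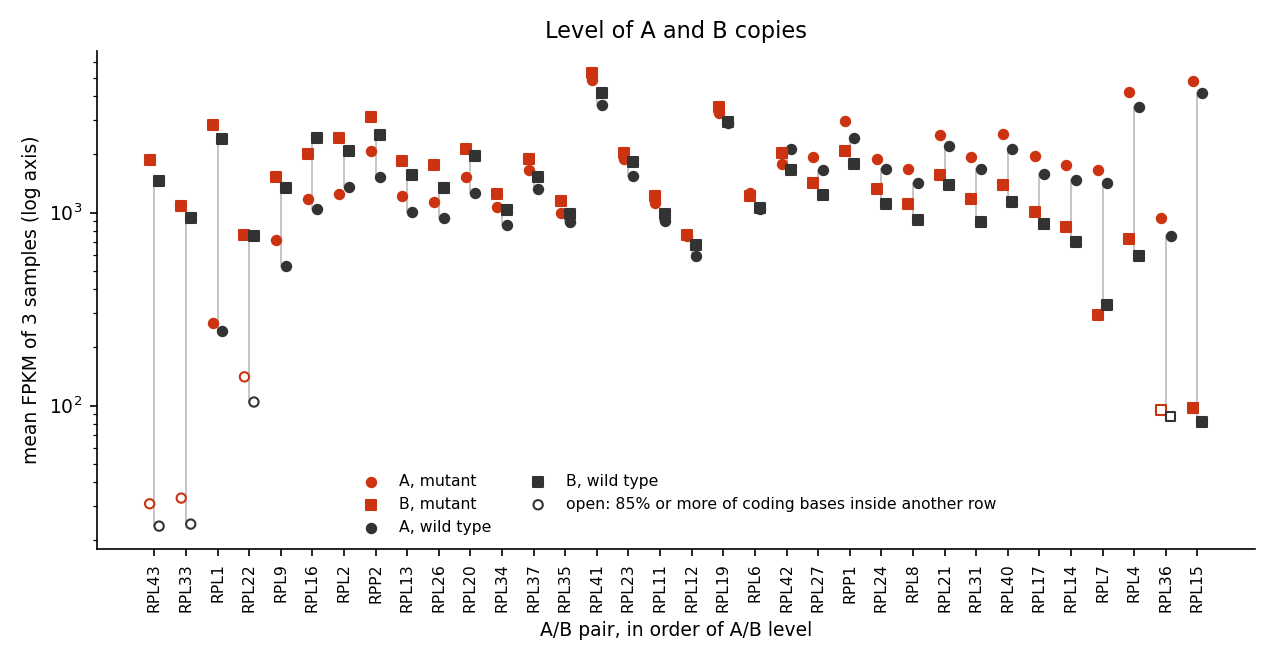
Mean FPKM (log axis) of the A copy (circles) and B copy (squares) of each pair shown, over the 3 mutant samples (red, left) and the 3 wild-type samples (dark, right). Open symbols mark copies with 85% or more of their coding bases inside another row, which include the low copies of RPL43, RPL33, RPL22 and RPL36.

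The ratio of A to B counts within a sample is free of library scaling and asks whether the strains used the copies differently. Over the 35 pairs, the ratio did not overlap between the strains in 10 (28.6%). Of these, 6 were among the 29 pairs with no copy on chromosomes XIV and VI. Beside this, levels of single genes lay above all wild-type samples in 11.8% of all genes tested and below them in 14.8%. The count of pairs is therefore not read as a trait of the pairs. The 2-sided exact permutation test cannot go below *p* = 0.1 with 3 samples against 3, and after adjustment over the 35 pairs the lowest value was 0.35, so that no pair passes a threshold by this test. The size of the change was 0.07 (log2) at the median in those 29 pairs and 0.39 in the 2 with a copy on chromosome VI.

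*RPL16* had A-to-B count ratios of 0.58, 0.56 and 0.61 in the mutant, against 0.44, 0.44 and 0.41 in wild type, a change of 0.44 on the log2 scale. *RPL42* had 0.89, 0.89 and 0.84 in the mutant, against 1.30, 1.28 and 1.28 in wild type, a change of -0.56. Thus in both pairs the copy off chromosome XIV held a larger part of the pair in each mutant sample, mutant replicate 1 included, and leaving out any one sample kept the change between 0.41 and 0.48 for *RPL16* and between -0.58 and -0.54 for *RPL42*. As a share of the pair's FPKM, *RPL42A* held 47.0%, 47.1% and 45.6% in the mutant, against 56.5%, 56.2% and 56.2% in wild type. *RPL9* did not follow, with 0.63, 0.42 and 0.35 in the mutant, against 0.38, 0.42 and 0.38 in wild type.

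On chromosome VI the change came from one colony. *RPL2* had A-to-B ratios of 0.33, 0.64 and 0.62 in the mutant, against 0.65, 0.64 and 0.65 in wild type. *RPL22* had 0.28, 0.14 and 0.16 in the mutant, against 0.13, 0.15 and 0.13 in wild type. Without mutant replicate 1, the log2 change was -0.04 for *RPL2* and 0.12 for *RPL22*, against -0.34 and 0.43 with it.

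Among the 29 other pairs the largest changes were those of *RPL7* (0.39), *RPL33* (0.27), *RPL36* (0.20), *RPL12* (0.16) and *RPL20* (0.15). The strains did not overlap in *RPL12* and *RPL20* and overlapped in the other 3. *RPL12A* and *RPL12B*, whose protein forms the stalk base with Rpp0, each have 62.5% of their coding bases inside another row. For *RPL7*, 49.0% of the coding bases of *RPL7B* lie inside another row and 17.9% of windows are shared between the copies.

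**Figure D5:**
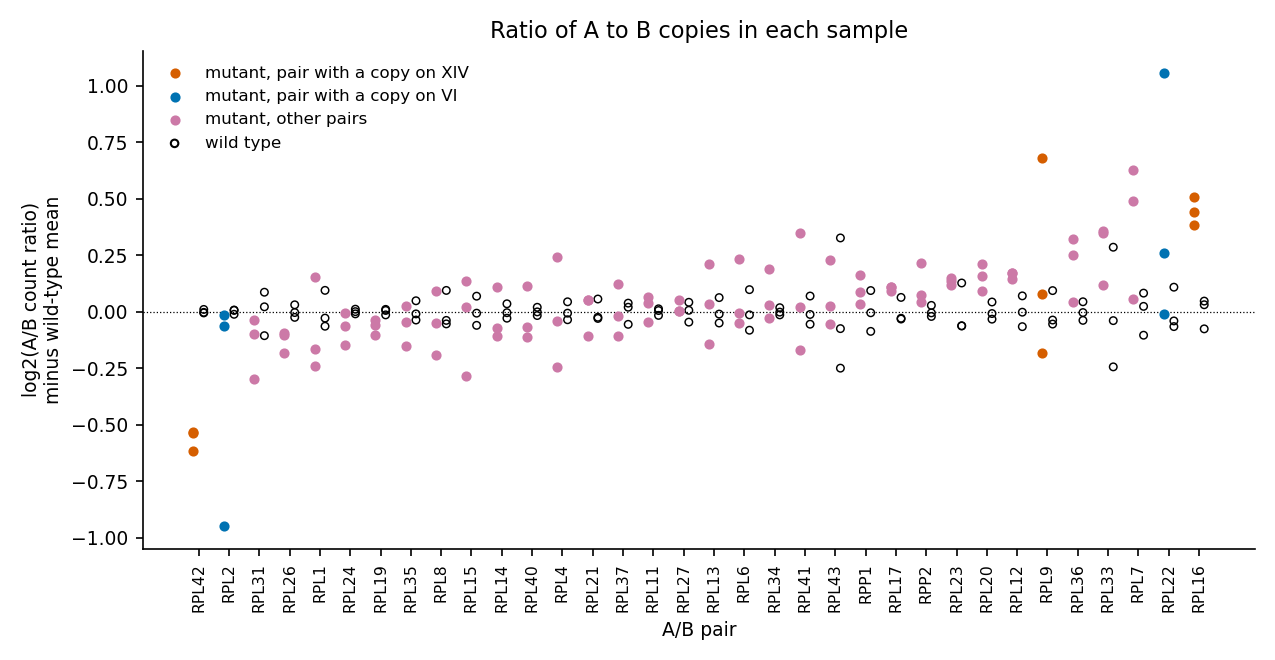
For each pair shown, points give the log2 ratio of A to B counts in each sample minus the mean of the wild-type samples, with the mutant in colour (left) and wild type in open circles (right). RPL16 lies above 0 and RPL42 below 0 in all 3 mutant samples, while RPL2, RPL22 and RPL9 have 1 mutant sample far from the others.

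Rap1 binds upstream of most ribosomal protein genes. The letters ACANCCNNACA, one form of its recognition sequence, were searched on both strands of the 500 bases before the start codon. They were found in 23 of the 82 members (28%) and in 2.40% of the 6002 nuclear protein-coding genes of R64. Of the 4 chromosome XIV members, 1 had a match, *RPL42A*, and its partner *RPL42B* had matches as well. The stretches are shown because this pair shared the motif and differed in its change, with the matches in capitals, read towards the gene.
RPL42A: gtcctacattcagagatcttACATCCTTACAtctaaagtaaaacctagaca
RPL42B: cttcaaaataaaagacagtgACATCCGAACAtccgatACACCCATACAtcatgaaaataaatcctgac
The first lies at chrXIV:330930-330980 and the second at chrVIII:383083-383150 of R64, on the minus strand for *RPL42B*. The match nearest to the start codon was 361 bases from it in *RPL42A* and 351 bases in *RPL42B*. Off chromosomes XIV and VI, the 21 members with a match had a median log2 fold change of 0.26 and the 54 without had 0.24, with medians in mutant replicate 1 of 0.56 and 0.52. A match here does not show that Rap1 was bound, nor does the lack of one show the reverse.

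Genes that serve the large subunit were also examined. Of 15 regulators of ribosomal protein genes, none was called (smallest adjusted *p* = 0.13, edgeR), and their median log2 fold change was 0.07. At an unadjusted *p* under 0.05 (edgeR), 2 of them were higher and 3 lower, against 8.24% of all genes tested higher and 11.9% lower. *RAP1* and *FPR1*, both on chromosome XIV, had -0.30 and -0.29. *HMO1*, which binds ribosomal protein gene promoters, had 289, 223 and 213 CPM in the mutant, against 192, 189 and 187 CPM in wild type, or 0.35 on the log2 scale, at an adjusted *p* of 0.16 (edgeR). *CRF1*, which had the smallest adjusted *p* of the list (0.13, edgeR), had a log2 fold change of 0.22. *STB3* had -0.22, at an adjusted *p* of 0.21 (edgeR). The regulators named here were singled out after their values were seen. Of the 12 listed chaperones, importers and methyltransferases of large subunit proteins, 9 were matched by symbol and none was called, with 0 higher and 1 lower at an unadjusted *p* under 0.05. Of 18 listed factors of late subunit maturation, 17 were matched and 1 was called, lower, against 4.67% of all genes tested called lower. This was *RLP7* on chromosome XIV, a nucleolar relative of Rpl7 that acts in rRNA processing, with 593, 481 and 547 CPM in the mutant, against 774, 748 and 788 CPM in wild type. The log2 change of -0.51 ± 0.11 (standard error), beside a median of -0.52 over all genes tested on chromosome XIV, had an adjusted *p* of 0.033 (edgeR). The call was lost without any one of the wild-type samples, with an adjusted *p* of 0.15, 0.14 and 0.16, and without mutant replicate 3, with an adjusted *p* of 0.075. In the mitochondrial large subunit, 5 of 33 genes were called, all lower and all on chromosome XIV, where 233 of all 407 genes tested were called lower. They were *MRPL10*, *MRPL17*, *MRPL19*, *MRPL22* and *MRPL50*, with log2 fold changes between -0.77 and -0.51. With one sample left out, the adjusted p (edgeR) went up to 0.105 for *MRPL10*, 0.0596 for *MRPL17*, 0.111 for *MRPL19* and 0.175 for *MRPL50*, each time without a wild-type sample, and *MRPL22* kept its call. *MRPL10* lost its call without any one of the wild-type samples, *MRPL17* without wild-type replicate 1 or 2, *MRPL19* without wild-type replicate 1 or 2 or mutant replicate 3, and *MRPL50* without any one of the samples other than mutant replicate 1. *MRPL50* was also not called with a replicate block (adjusted *p* = 0.0657, edgeR). The 28 genes tested off that chromosome had a median of -0.02. In the small subunit, the 3 genes on chromosome XIV, *RPS3*, *RPS7B* and *RPS19B*, had log2 fold changes of 0.01, -0.35 and -0.29, beside a median of 0.21 over its 56 genes.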

How the data were processed

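Poly(A) RNA of 6 samples, 3 colonies each of the *kcs1*-S537A,S646A and the wild-type *KCS1* strain, was sequenced as paired reads of 150 bases. The authors' provider filtered the reads, mapped them with HISAT2 2.0.5 and counted them with featureCounts 1.5.0-p3. The deposited count table holds the raw counts of each gene. The authors' FPKM table holds each count divided by the gene's length and a depth per sample, and was used here only for levels per length and one alternative. The build and strand setting are not given in the sources used here. Coordinates of all 82 members were identical in R64. A deposited table of mean FPKM per strain was not used.

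The strains were compared with edgeR 4.0.16 under R 4.3.3 (filterByExpr with a minimum of 10 counts, TMM, glmQLFit, glmQLFTest, 2-sided, Benjamini-Hochberg adjustment over 6083 genes, threshold 0.05). Per-sample differences are log2 CPM with a prior count of 2. A-to-B ratios used a pseudocount of 0.5 and 2-sided exact permutation tests. Total counts were between 17950923 and 22701020, and for most members the spread between colonies, rather than counting error, set the precision. *RPL33A*, *RPL39* and *RPL43A* had only 89 to 236 counts per sample, so that counting error also matters there. Alternatives were run with DESeq2 1.42.0, limma 3.58.1, other scalings and filters, each sample left out and a replicate block. On simulated data, 179 of 200 genes changed 2-fold among 6083 were recovered with 13 false calls.

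The members, lists and the rule for named genes were chosen with earlier results of these data known. Named are all members on chromosomes XIV and VI with their partners, called members, the 4 largest and 4 smallest fold changes elsewhere, stalk and ubiquitin-fusion genes, the 5 largest and 3 smallest A-to-B level ratios, the 5 largest ratio changes elsewhere, the 3 highest and 3 lowest by FPKM, *RPP1*, *KCS1* and called genes of the related lists. One item that this rule names is not reported here.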

Additional observations from a re-analysis of the deposited data

How the results depend on the processing

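*RPL18B* was called lower under all alternatives that kept chromosome XIV. Members called lower were 0 when chromosomes XIV and VI were left out, which removes that gene, and 1 to 2 with a sample left out, *RPL16B* joining without mutant replicate 1. Members called higher were 1 with DESeq2 (*RPL22A*) and 0 to 1 with a sample left out (*RPL22A* without mutant replicate 2, *RPL41A* without mutant replicate 3). Over all genes, 344 were called by edgeR, 592 by DESeq2, 16 without chromosomes XIV and VI, and 84 to 481 with a sample left out, and the cause was not tested. The median of the members was 0.24 and between 0.08 and 0.32 over all alternatives, lowest without mutant replicate 1. That of the members on chromosome XIV was between -0.45 and -0.17, and that of the members off it between 0.09 and 0.32. It was 0.24 in members with under 50% of coding bases inside another row, a setting chosen after seeing the data. Members above all wild-type samples were 28 to 50 with a sample left out, beside 14.5% to 22.3% of all genes tested, also chosen after seeing the data. Pairs with no overlap of ratios were 12 to 17 with a sample left out, a setting in which smaller groups overlap less readily. The excess of the members' share of counts in the mutant, 0.65 percentage points, was between 0.15 and 0.98 with a sample left out.

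Small values changed sign. With library totals they were -0.032 for *RPL10*, -0.032 for *RPL22B* and -0.0064 for *RPL29*. With limma-voom they were -0.018 for both *RPL22B* and *RPL29*, and with limma-trend on FPKM -0.0066 for *RPL22B* and -0.0086 for *RPL29*. With a sample left out, ranges that crossed 0 were -0.072 to 0.18 for *RPL10*, -0.021 to 0.28 for *RPL16A*, -0.12 to 0.20 for *RPL22B*, -0.24 to 0.24 for *RPL29*, -0.21 to 0.024 for *RPL2A* and -0.13 to 0.76 for *KCS1*.

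Samples with the same number did not deviate together in all pairs (correlations over genes of -0.13, 0.02 and 0.34 for replicates 1, 2 and 3), so the numbers were not used to pair them. With a replicate block, 282 genes were called, *RPL18B* remained the only member called, the members' median was 0.23, *RLP7* had an adjusted *p* of 0.051, and *RPL22B* and *RPL29* were at -0.0060 and -0.0082.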
